A study of Mus musculus with 11 samples.

Results

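The comparison described here set primary mouse ovarian granulosa cells given pool 2 of siRNAs against Akt1 beside the same kind of cells given a nontargeting scrambled siRNA (scramble). It was chosen by treatment label and held 5 of the 11 RNA-seq libraries of the series, 2 of pool 2 and 3 of scramble. The cells came from RjOrl:SWISS mice, an outbred strain, and no genetic change is labelled. All groups were lipofected with 30 pmol of siRNA in a well; the mix stayed on for 5 h, and RNA dates from the 30 h time point. Each Akt1 pool held 3 of 4 siRNAs, numbered 6 to 9, and pool 2 was the one without siRNA 7. The siRNA missing from the mix was number 9 in pool 1, number 8 in pool 3 and number 6 in pool 4, with the pool names of the protocol text matched to those of the sample titles by their number. The 6 libraries of the other pools (2 each) entered the fits and are given beside pool 2 where they differ. The labels do not say whether the libraries of a group came from separate cultures or animals, and every p-value below rests on the spread between single libraries, which may be technical only.

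AKT1 is a serine/threonine kinase that is recruited to the membrane by the lipid product of PI3K and phosphorylates FOXO factors, GSK3 and TSC2 among others. Through mTORC1 and other routes AKT raises the activity of the SREBP transcription factors, which switch on the genes of cholesterol and fatty acid synthesis and of lipoprotein uptake. Granulosa cells surround the oocyte, respond to FSH through cAMP and PI3K signalling, and use cholesterol to make progesterone.

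Depth was 30465094 and 29876271 reads in genes in the pool 2 libraries, and 32643158, 27143891 and 23851293 in scramble replicates 1, 2 and 3. Levels are given as CPM, the count of a gene relative to all counts in genes of its library, scaled between libraries by TMM. Scramble replicate 1 stood apart. Across genes its log2 CPM had Pearson correlations of 0.953 and 0.948 with scramble replicates 2 and 3, against 0.995 between those replicates and 0.996 between the pool 2 libraries. It differed from scramble replicates 2 and 3 with the length of the gene's exons: genes with a median of 1315.5 exon bases were higher in it by a median of 0.84 on the log2 scale, and genes with a median of 7204 exon bases were lower by 0.91. ERCC spike-in sequences took 0.788% of its counts, against 0.299% and 0.45% in scramble replicates 2 and 3 and 0.363% and 0.318% in pool 2. Results are therefore given with all libraries and without scramble replicate 1. Of the granulosa markers, Foxl2 (146 to 203 CPM over the 5 libraries) and Inha (1959 to 3493 CPM) were present. Nr5a2 (36.0 to 146 CPM) and Inhba (20.2 to 478 CPM) were present too, both lowest in scramble replicate 1. Nr5a1, which was not in the marker list, was at 146 to 172 CPM. The receptor gene Fshr was at 0.0683 to 0.246 CPM, Amh at 0.216 to 0.829 CPM and Cyp19a1 at 2.35 to 3.22 CPM, so these markers of FSH-responsive follicles were near 0. The globin genes Hba-a1, Hbb-bs and Hbb-bt were at 0 in all 5 libraries. The sum of 6 immune markers was 5.83 to 7.42 CPM in pool 2 and 5.54 to 8.63 CPM in scramble. Surface epithelium markers were higher, with a sum over 6 genes of 378 to 408 CPM in pool 2 and 353 to 648 CPM in scramble.

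Akt1, the targeted gene (chr12:112653821-112674884, minus strand, mm10), stood at 53.8 and 56.3 CPM in the pool 2 libraries and at 530, 441 and 412 CPM in the scramble libraries. Both pool 2 libraries lay far below every scramble library. The log2 fold change was −3.07 ± 0.14 with all libraries (SE, 2 libraries against 3; edgeR adjusted p = 0.000163). With only these 5 libraries in the fit the value was the same and Akt1 was not called (edgeR adjusted p = 0.205). Without scramble replicate 1 it was −2.96 ± 0.06 (SE, 2 against 2; edgeR adjusted p = 8.03e-19). Akt2, the family member best known for insulin signalling, had 54.4 and 53.2 CPM in pool 2 and 62.6, 58.3 and 53.6 CPM in scramble, with a log2 fold change of −0.06 ± 0.05 without scramble replicate 1 (edgeR adjusted p = 0.609). Akt1 in the other pools ranged over 54.6 to 79.6 CPM, and the log2 difference of pool 2 from their mean was −0.24 (edgeR adjusted p = 0.329 with all libraries and 0.000427 without scramble replicate 1).

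**Figure D1:**
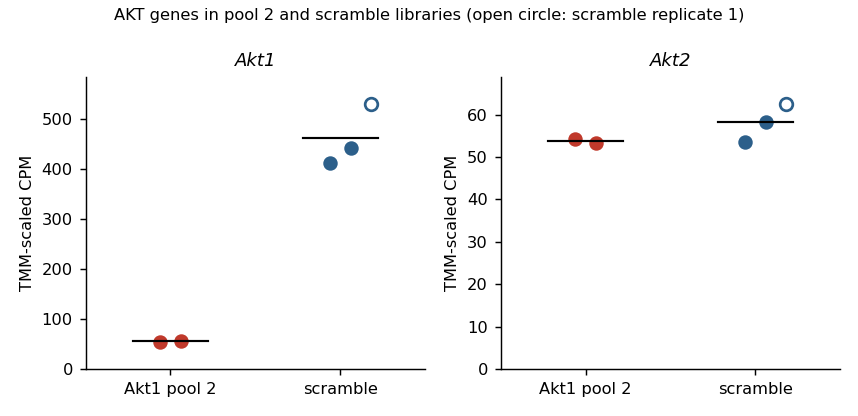
Level of Akt1 and Akt2 (TMM-scaled CPM, vertical axis from 0) in each pool 2 library (red) and scramble library (blue), with scramble replicate 1 as an open circle and the group mean as a line. Akt1 is at 53.8 and 56.3 CPM in pool 2 and at 412 to 530 CPM in scramble, and for Akt2 pool 2 replicate 1 lies within the range of the scramble libraries.

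Beyond Akt1 the called differences depended on scramble replicate 1 and were small. With all libraries, Akt1 was the only gene called (adjusted p below 0.05) of 14144 tested (0.00707%), while 653 genes had an unadjusted p below 0.05 in the edgeR fit. Without scramble replicate 1, 618 of 14062 genes were called (4.39%): 240 were higher in pool 2 (1.71%) and 378 were lower (2.69%). In that fit 2337 genes had an unadjusted edgeR p below 0.05, in either direction. The median size of the called changes was 0.264 on the log2 scale, and 89.2% of them were under 0.5. The spread between libraries of a group that edgeR estimated was a coefficient of variation of 19.0% with all libraries and 3.43% without scramble replicate 1. A fit that kept all libraries but gave less weight to those far from their group (limma-voom with sample quality weights) called 181 genes higher (1.28%) and 307 lower (2.17%). Of these 488 genes, 456 were among the 618.

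Against all 3 scramble libraries, both pool 2 libraries were higher for 13.5% of the genes tested and lower for 12.2%. Among the called genes that were so for 205 of the 240 higher and 202 of the 378 lower genes. The called genes were picked for differing from scramble replicates 2 and 3, so these counts were partly fixed by that choice. They are no separate support for the calls. With all libraries in the fit, 554 of the 618 had the same sign and 64 the opposite one. When the trend of each library with exon length was taken out by offsets, all libraries together gave 12 calls (0.0848%): Akt1, P2rx4, Crabp2, Nrd1, Gstm1, Acss2, Lss, Star, Map1a and Tmem129 were lower in pool 2, and Egr1 and Fos were higher. All 12 were also among the 618. For comparison, the same fit without scramble replicate 1 called 4044 genes in pool 1, 6864 in pool 3 and 4364 in pool 4, each against the same scramble libraries.

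**Figure D2:**
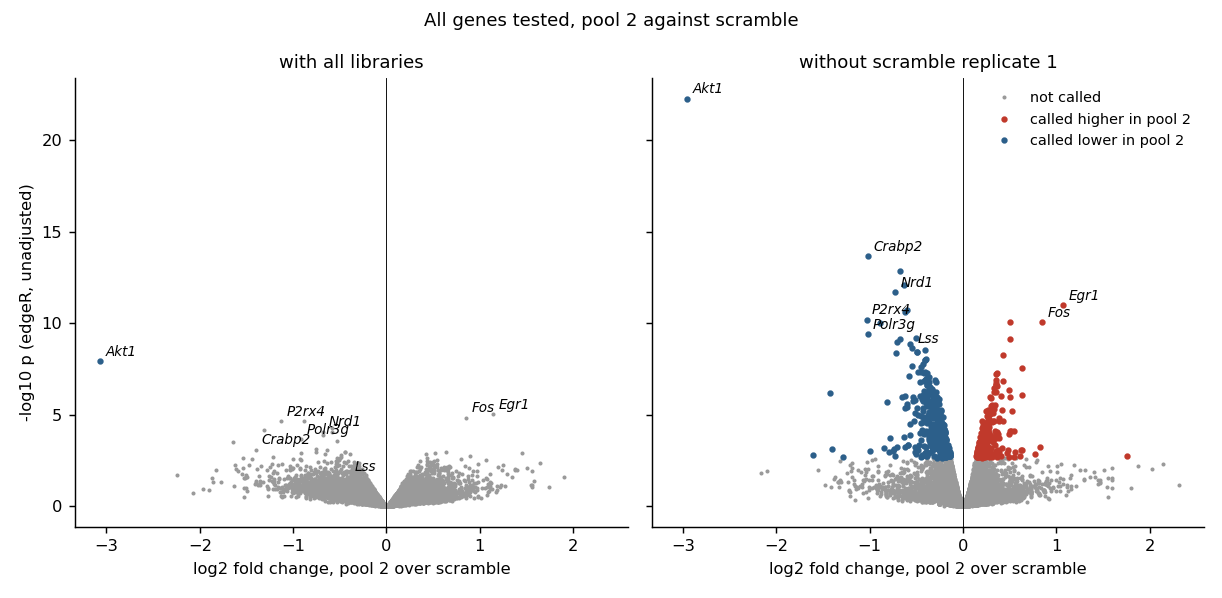
Log2 fold change of pool 2 over scramble (horizontal) against −log10 of the unadjusted edgeR p (vertical) for each gene tested, with all libraries (left) and without scramble replicate 1 (right). Red points are called higher and blue points lower in pool 2; Akt1 is the 1 called gene on the left, and 240 red and 378 blue points stand on the right.

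The genes of cholesterol synthesis were lower in pool 2 from the first steps of the pathway to the last. Of 22 genes, 19 fell and 0 rose without scramble replicate 1, against 2.69% of all genes tested that were called lower. The median log2 fold change of the 22 was −0.38, and −0.40 with all libraries, where none was called in the edgeR fit; over all genes tested the medians were 0.00 and −0.01. All 22 were below 0 without scramble replicate 1. The weighted limma-voom fit with all libraries called 19 of the 22 lower. DESeq2 with all libraries called 2 lower, and 13 had an unadjusted edgeR p below 0.05 in that fit. For 15 of the 22, both pool 2 libraries were below all 3 scramble libraries, against 12.2% of all genes tested. With a further library of the comparison left out, besides scramble replicate 1, 17 to 20 of the 22 were called lower.

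At the head of the pathway, Hmgcs1, which makes HMG-CoA, had 440 and 477 CPM in pool 2 and 461, 630 and 617 CPM in scramble. It was below scramble replicates 2 and 3 and overlapped scramble replicate 1, with a log2 fold change of −0.45 ± 0.05 without it (SE, 2 against 2; edgeR adjusted p = 1.15e-05). Among the mevalonate enzymes, Mvd, the decarboxylase, had 40.3 and 39.1 CPM in pool 2 and 95.6, 63.8 and 50.5 CPM in scramble, so that the groups did not overlap (log2 fold change −0.53 ± 0.08, edgeR adjusted p = 0.000264 without scramble replicate 1). Idi1, the isopentenyl diphosphate isomerase, was at low levels, 4.29 and 5.02 CPM in pool 2 and 3.44, 7.21 and 6.75 CPM in scramble (−0.59 ± 0.14, edgeR adjusted p = 0.0165), and it lost its call in 2 of the 4 fits that also left out another library of the comparison.

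Of the enzymes that make and trim the sterol rings, Lss, the lanosterol synthase, had 97.0 and 109 CPM in pool 2 and 109, 154 and 146 CPM in scramble. Cyp51, which removes a methyl group from lanosterol, had 203 and 208 CPM in pool 2 and 309, 294 and 285 CPM in scramble. For both genes the pool 2 libraries were below all scramble libraries, though Lss in pool 2 replicate 2 was close to scramble replicate 1. The log2 fold changes without scramble replicate 1 were −0.54 ± 0.05 for Lss (edgeR adjusted p = 1.73e-06) and −0.50 ± 0.05 for Cyp51 (edgeR adjusted p = 6.29e-07). Sqle, the squalene epoxidase, changed by −0.32 ± 0.05, and Dhcr7, which acts at the end of the pathway, by −0.37 ± 0.05 (edgeR adjusted p = 0.000643 and 0.000127). The 3 genes not called were Ebp (−0.15, edgeR adjusted p = 0.17), Ggps1 (−0.02, 0.896) and Lbr (−0.01, 0.954). Ggps1 makes geranylgeranyl diphosphate on a side branch, and Lbr is a receptor of the nuclear lamina that also has sterol reductase activity.

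The promoters of these genes were read from RefSeq (build GRCm38.p6) as windows of 250 bases before to 50 bases after the gene's start. The letters CCAAT (either strand), to which the factor NF-Y binds, were searched because NF-Y acts together with SREBP, and TCACNCCAC (either strand) because SREBP factors bind it. Of the 22 genes, 17 had a window, and 16 of them (94.1%) held CCAAT, against 43% of the 10681 genes tested that had a window. TCACNCCAC was in 1 of the 17 (Hmgcs1), against 1.42% of the genes tested. CCAAT stood in 49.3% of the windows of genes called lower and in 45.6% of those called higher. The windows of Hmgcs1, Mvk and Lss are printed to show several boxes (Hmgcs1 with 4 CCAAT matches and 1 TCACNCCAC match, Mvk with 5 CCAAT matches) and a single one (Lss), with the matches in capitals; ATTGG is CCAAT on the other strand. A match is a match of letters and was not tested for binding.
Hmgcs1 promoter, chr13:119690101-119690400, + strand: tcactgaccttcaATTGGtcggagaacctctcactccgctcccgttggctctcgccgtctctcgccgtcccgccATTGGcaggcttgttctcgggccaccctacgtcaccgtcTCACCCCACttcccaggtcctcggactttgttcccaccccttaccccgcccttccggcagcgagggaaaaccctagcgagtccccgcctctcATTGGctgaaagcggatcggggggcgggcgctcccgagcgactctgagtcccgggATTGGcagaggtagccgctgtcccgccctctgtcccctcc
Mvk promoter, chr5:114444019-114444318, + strand: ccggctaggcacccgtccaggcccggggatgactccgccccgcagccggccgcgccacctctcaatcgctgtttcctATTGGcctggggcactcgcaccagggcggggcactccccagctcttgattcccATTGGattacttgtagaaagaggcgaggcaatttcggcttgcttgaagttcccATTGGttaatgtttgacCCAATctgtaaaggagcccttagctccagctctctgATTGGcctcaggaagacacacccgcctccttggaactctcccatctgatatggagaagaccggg
Lss promoter, chr10:76531355-76531654, + strand: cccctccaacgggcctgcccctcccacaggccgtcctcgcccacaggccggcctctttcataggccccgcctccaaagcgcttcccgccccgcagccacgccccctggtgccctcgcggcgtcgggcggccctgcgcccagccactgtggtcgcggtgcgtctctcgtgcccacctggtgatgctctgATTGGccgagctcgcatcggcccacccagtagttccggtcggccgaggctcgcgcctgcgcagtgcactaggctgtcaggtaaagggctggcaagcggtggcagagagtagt

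Fatty acid synthesis genes followed the same direction, with 11 of 16 lower and 0 higher without scramble replicate 1 and a median of −0.27. With all libraries the median was −0.13 and 0 were called in the edgeR fit, while the weighted limma-voom fit called 11 lower, DESeq2 called 1 lower, and 1 was lower at an unadjusted edgeR p below 0.05. Without scramble replicate 1, 7 were called lower when pool 2 replicate 1 was left out as well. Acss2, which makes acetyl-CoA from acetate, had 19.5 and 21.5 CPM in pool 2 and 31.2, 34.6 and 32.6 CPM in scramble, without overlap (−0.71 ± 0.07, edgeR adjusted p = 2.75e-06). Scd1, the stearoyl-CoA desaturase, had 290 and 327 CPM in pool 2 and 271, 497 and 486 CPM in scramble. It was below scramble replicates 2 and 3 and overlapped scramble replicate 1 (−0.68 ± 0.06, edgeR adjusted p = 6.34e-07). Fasn, the fatty acid synthase, changed by −0.29 ± 0.05 and Acly, which supplies cytosolic acetyl-CoA, by −0.26 ± 0.04 (edgeR adjusted p = 0.000807 and 0.00067). Both pool 2 libraries were below all 3 scramble libraries for 2 of the 16, close to the share over all genes tested (12.2%). The exons of the list are long (median 4721 bases). Its median log2 difference of scramble replicate 1 from scramble replicates 2 and 3 was −0.61.

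Of 26 genes of cholesterol uptake, transport and SREBP control, 9 were lower and 0 higher (median −0.12; −0.03 with all libraries). The 9 became 4 when pool 2 replicate 1 was left out as well and 6 when scramble replicate 2 was. Insig1, which holds SREBP in the endoplasmic reticulum and is itself an SREBP target, had 66.7 and 70.2 CPM in pool 2 and 83.0, 99.2 and 84.6 CPM in scramble, below all scramble libraries (−0.43 ± 0.06, edgeR adjusted p = 0.000157). Lrp8 (−0.58 ± 0.07), Stard4 (−0.30 ± 0.06), Scarb1 (−0.27 ± 0.05), Soat1 (−0.24 ± 0.06), Nr1h2 (−0.23 ± 0.06), Tmem97 (−0.22 ± 0.06) and Npc1 (−0.19 ± 0.05) were lower as well. The SREBP genes themselves were not called: Srebf1 changed by −0.12 (edgeR adjusted p = 0.191) and Srebf2 by −0.10 (edgeR adjusted p = 0.313), and Scap, their escort, by −0.04 (edgeR adjusted p = 0.676). The LXR targets Abca1 (−0.07, edgeR adjusted p = 0.507) and Abcg1 (−0.13, edgeR adjusted p = 0.551) were not called either. Stard4 had the opposite sign with all libraries (0.11), where its level in scramble replicate 1 was 12.7 CPM against 48.9 and 47.6 CPM in the other scramble libraries.

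**Figure D3:**
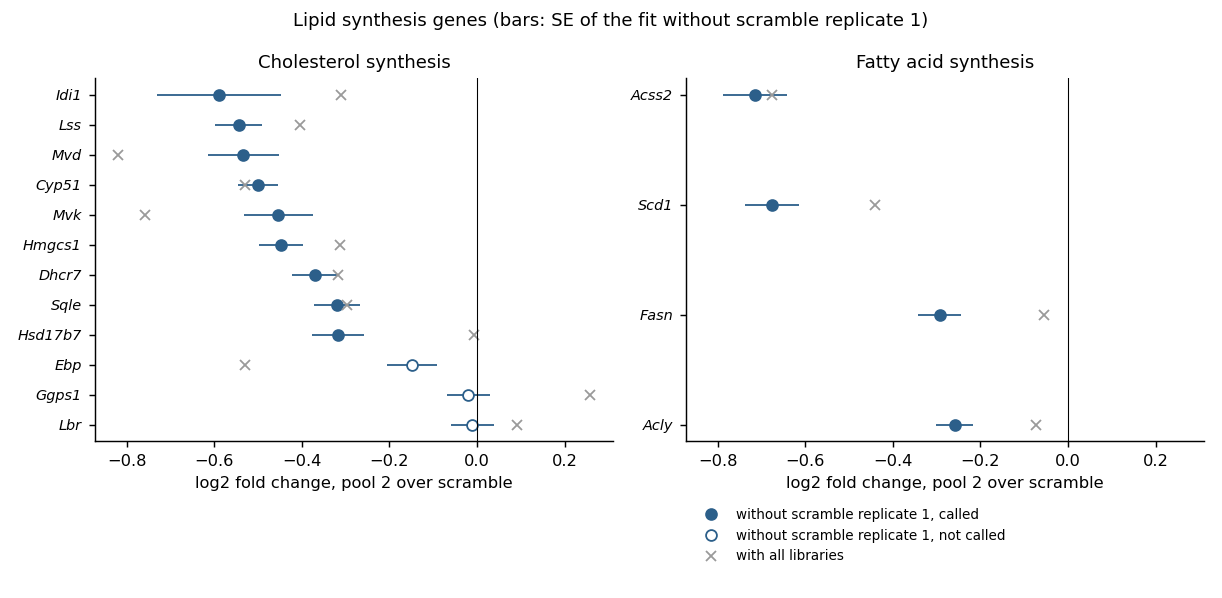
Log2 fold change of pool 2 over scramble for the genes of cholesterol synthesis (left) and fatty acid synthesis (right) that the text names, without scramble replicate 1 (circles, filled where called, bars are SE) and with all libraries (crosses). The circles of all genes shown lie below 0; over the whole lists the median with all libraries was −0.40 and −0.13.

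Steroid hormone genes were lower in part. Of 17 genes, 7 fell and 0 rose (median −0.16; −0.34 with all libraries). With all libraries edgeR and DESeq2 called 0, the weighted limma-voom fit called 6 lower, and 6 were lower at an unadjusted edgeR p below 0.05. Without scramble replicate 1, the 7 became 3 when pool 2 replicate 1 was left out as well and 11 when scramble replicate 3 was. Star, which carries cholesterol to the inner mitochondrial membrane, had 396 and 394 CPM in pool 2 and 453, 506 and 539 CPM in scramble, without overlap (−0.41 ± 0.04, edgeR adjusted p = 2.04e-06 without scramble replicate 1). Cyp11a1, the side-chain cleavage enzyme, changed by −0.30 ± 0.04, and its electron carrier Fdx1 by −0.38 ± 0.05 (edgeR adjusted p = 3.88e-05 and 5.73e-05). Hsd3b1, which makes progesterone, changed by −0.27 ± 0.05 (edgeR adjusted p = 0.00207). The other called members were Fdxr (−0.20 ± 0.05), Hsd17b1 (−0.23 ± 0.06) and Hsd17b7 (−0.32 ± 0.06), which also belongs to cholesterol synthesis. Nr5a1, the factor that drives many steroid genes, was not called (−0.10, edgeR adjusted p = 0.321), nor was the aromatase gene Cyp19a1 (−0.30 ± 0.17, edgeR adjusted p = 0.407).

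Of 23 granulosa identity and FSH response genes, 4 were lower and 0 higher (median −0.07). These were Wnt4 (101 and 103 CPM in pool 2, 252, 131 and 132 CPM in scramble; −0.37 ± 0.05), Inhba (385 and 412 CPM in pool 2, 20.2, 468 and 478 CPM in scramble; −0.25 ± 0.05), Cyp11a1 and Hsd17b1. Inhba, the activin beta A subunit, had the opposite sign with all libraries (0.31). Foxl2 (0.07, edgeR adjusted p = 0.603) and Gata4 (−0.00, edgeR adjusted p = 0.997) were not called. Of 22 ovulatory and luteal genes, 7 were lower and 0 higher (median −0.22; −0.18 with all libraries): Star, Sfrp4 (−0.42 ± 0.06), the EGF-family ligands Btc (−0.40 ± 0.08) and Ereg (−0.37 ± 0.06), the cumulus matrix gene Tnfaip6 (−0.40 ± 0.08), the protease Adamts1 (−0.33 ± 0.05) and the prostaglandin synthase Ptgs2 (−0.22 ± 0.04). The 4 granulosa calls became 2 when pool 2 replicate 1 was left out as well, and 6 without scramble replicate 3; the ovulatory calls were 6 to 9. In bulk RNA, fewer cells of a type and less RNA per cell cannot be told apart.

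Within the AKT and PI3K signalling genes, 6 of 27 were higher and Akt1 was the 1 that was lower (median 0.07; 0.31 with all libraries, where scramble replicate 1 had a median of −0.66 against the other scramble libraries). Pik3ip1, an inhibitor of the PI3K catalytic subunit, had 21.8 and 23.2 CPM in pool 2 and 18.6, 14.2 and 14.8 CPM in scramble, above all of them (0.63 ± 0.07, edgeR adjusted p = 1.35e-05 without scramble replicate 1). Phlpp2, a phosphatase that removes phosphate from AKT, had 49.9 and 48.5 CPM in pool 2 and 15.2, 36.7 and 37.5 CPM in scramble (0.40 ± 0.06, edgeR adjusted p = 0.000165). Both were above all scramble libraries, as were 13 of the 27 members of the list in all, against 13.5% of all genes tested. Pik3ip1 was picked partly by that position. A negative regulator of PI3K and one of AKT were thus called higher. Phlpp1, in the same list, was not called (0.09 ± 0.06, edgeR adjusted p = 0.545). Upstream adaptors rose as well: Irs1 had 79.3 and 79.6 CPM in pool 2 and 32.9, 62.7 and 69.3 CPM in scramble (0.27 ± 0.05, edgeR adjusted p = 0.00214), Gab1 changed by 0.28 ± 0.05 (edgeR adjusted p = 0.00151), and Irs2 by 0.25 ± 0.07 (edgeR adjusted p = 0.0437). Irs2 lost its call in each of the 4 fits that also left out another library of the comparison. With a further library left out, 4 to 7 of the 27 were called higher, 4 when it was pool 2 replicate 2. Pdpk1 (0.07, edgeR adjusted p = 0.404), Tsc2 (0.00, 0.988), Mtor (0.09, 0.322) and Gsk3b (−0.00, 0.993) were not called.

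In the insulin and IGF system, 4 of 20 genes were higher (Irs1, Irs2, Igf1 and Igf1r) and 1 was lower (Igfbp5); the median was −0.00, and 0.12 with all libraries. Igf1, the growth factor that granulosa cells make, had 310 and 329 CPM in pool 2 and 179, 254 and 276 CPM in scramble, above all of them (0.27 ± 0.05, edgeR adjusted p = 0.00163). Its receptor gene Igf1r changed by 0.17 ± 0.04 (edgeR adjusted p = 0.0307) and the binding protein gene Igfbp5 by −0.47 ± 0.10 (edgeR adjusted p = 0.00518). The 4 higher calls of this list became 2 when either pool 2 library was left out as well. The FOXO factors and the genes they induce showed no common direction: of 23, Txnip and Irs2 were higher, the factor gene Foxo6 and Ddit4 were lower, and the median was 0.03. Txnip, an arrestin-fold protein that restrains glucose uptake, had 128 and 125 CPM in pool 2 and 82.6, 96.0 and 102 CPM in scramble (0.35 ± 0.04, edgeR adjusted p = 4.12e-05). Foxo1 (−0.23 ± 0.07, edgeR adjusted p = 0.0795) and Foxo3 (−0.07 ± 0.06, 0.631) were not called, nor were Bcl2l11 (0.26 ± 0.11, 0.243), Cdkn1b (0.03 ± 0.05, 0.838) and Sesn3 (−0.08 ± 0.07, 0.644).

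Egr1 and Fos, both immediate early genes, had the largest increases among the genes that met the naming rule. Egr1, a zinc finger factor induced through ERK, had 74.2 and 92.3 CPM in pool 2 and 34.3, 39.3 and 39.8 CPM in scramble. Fos, an AP-1 subunit (chr12:85473890-85477273, plus strand), had 48.6 and 53.3 CPM in pool 2 and 27.9, 29.5 and 27.0 CPM in scramble. For both, pool 2 was above every scramble library, as the naming rule required, and scramble replicate 1 did not stand apart. The log2 fold change of Egr1 was 1.07 ± 0.08 without scramble replicate 1 (edgeR adjusted p = 2.45e-08) and 1.14 ± 0.12 with all libraries (edgeR adjusted p = 0.0621). For Fos it was 0.85 ± 0.07 (edgeR adjusted p = 1.15e-07) and 0.86 ± 0.10 (edgeR adjusted p = 0.0621). Of 25 genes of this kind, 5 were higher and 0 lower (median 0.14; 0.19 with all libraries). Without scramble replicate 3 as well the median was 0.070, and without pool 2 replicate 2 as well it was 0.088. The other 3 were Zfp36 (0.31 ± 0.05), which destabilises AU-rich mRNAs, Ier2 (0.34 ± 0.06; −0.11 with all libraries) and the ERK phosphatase gene Dusp6 (0.18 ± 0.04). Jun (0.05, edgeR adjusted p = 0.687), Junb (0.07, 0.632), Egr2 (−0.15, 0.506) and Myc (0.16, 0.0949) were not called.

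**Figure D4:**
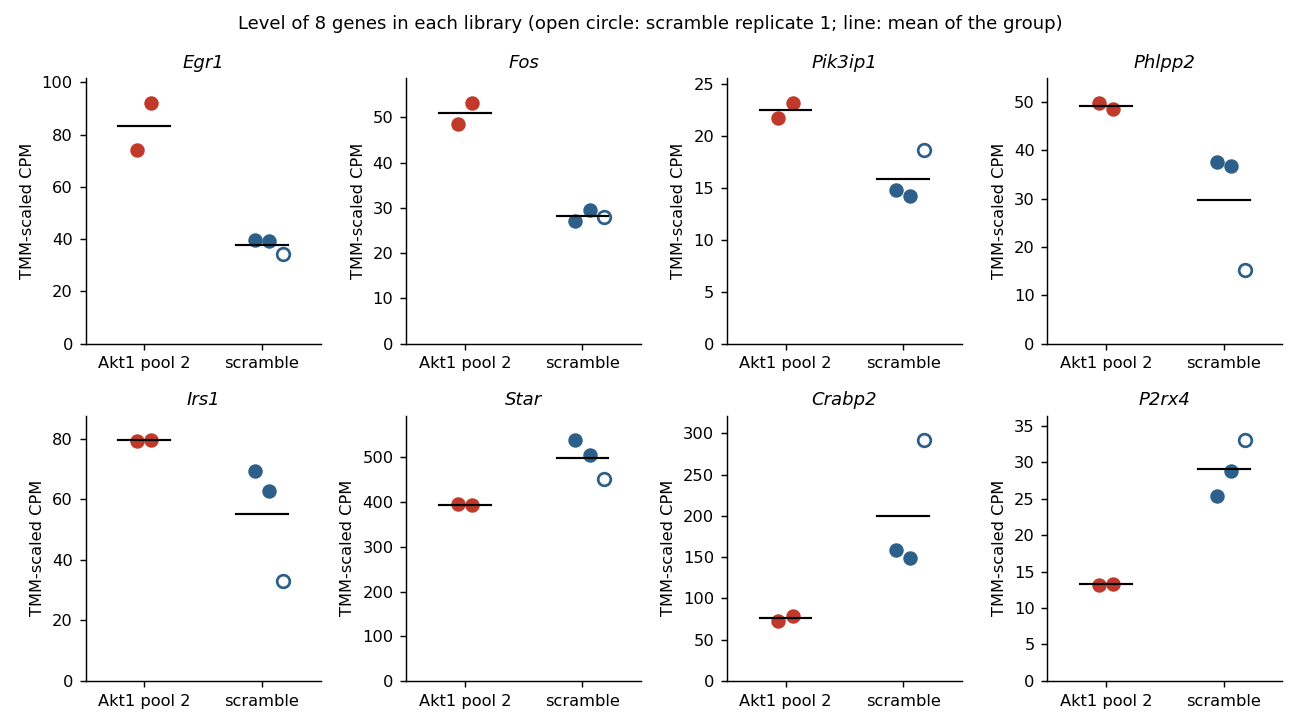
Level of 8 genes (TMM-scaled CPM, each axis from 0) in each pool 2 library (red) and scramble library (blue), with scramble replicate 1 as an open circle and the group mean as a line. Egr1, Fos, Pik3ip1, Phlpp2 and Irs1 are above all scramble libraries in pool 2, and Star, Crabp2 and P2rx4 are below them; Phlpp2, Irs1 and Crabp2 show scramble replicate 1 away from the other scramble libraries.

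Apart from Akt1, 3 of the genes that met the naming rule fell by at least 2-fold. P2rx4, an ATP-gated ion channel (chr5:122707544-122729738, plus strand), had 13.2 and 13.3 CPM in pool 2 and 33.1, 28.8 and 25.3 CPM in scramble (−1.03 ± 0.08, edgeR adjusted p = 1.02e-07 without scramble replicate 1; −1.13 ± 0.13, 0.0621 with all libraries). Polr3g, a subunit of RNA polymerase III, had 13.1 and 13.9 CPM in pool 2 and 21.7, 25.0 and 30.0 CPM in scramble (−1.02 ± 0.09, edgeR adjusted p = 4.29e-07; −0.92 ± 0.15, 0.284). Crabp2, which carries retinoic acid to its receptors (chr3:87948666-87953376, plus strand), had 72.8 and 79.2 CPM in pool 2 and 292, 149 and 159 CPM in scramble (−1.02 ± 0.05, edgeR adjusted p = 1.53e-10; −1.40 ± 0.27, 0.611). None of the 3 overlapped between groups, as the naming rule required. The other 5 genes that were lower by at least 2-fold, Comp, Grin1, Ly6a, Muc15 and Serpina6, and Iglon5, which with Egr1 was higher by at least 2-fold, were all at low levels, the highest being 2.94 CPM for Serpina6 in scramble replicate 3.

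The next largest decreases were in Galnt16 (−0.81 ± 0.12), a mucin-type glycosyltransferase, Nrd1 (−0.73 ± 0.05), the protease nardilysin, Acss2, described above, Gstm1 (−0.71 ± 0.07), a glutathione transferase, Cmtm6 (−0.63 ± 0.05), Nap1l5 (−0.62 ± 0.15), Gga2 (−0.61 ± 0.05), a Golgi sorting adaptor, Bola3 (−0.60 ± 0.10), an iron-sulfur cluster factor, Nefm (−0.59 ± 0.14) and Adamtsl5 (−0.57 ± 0.11). Each was below all 3 scramble libraries, as the naming rule required. Adamtsl5 was −0.35 when scramble replicate 2 was left out as well, and then not called (edgeR adjusted p = 0.0795). Nrd1 had 141 and 148 CPM in pool 2 and 214, 229 and 251 CPM in scramble, and Gga2 had 53.8 and 55.6 CPM in pool 2 and 79.9, 84.1 and 81.9 CPM in scramble. For both, the spread within a group was small beside the gap between groups, which the naming rule favoured. Reads of Gstm1 may be shared with its close paralogs, so its value is uncertain.

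After Egr1 and Fos, the largest increases among genes above all 3 scramble libraries were Pik3ip1, Tcp11x2 (0.63 ± 0.16), the membrane protein gene Xk (0.53 ± 0.09), the kinase gene Map3k9 (0.52 ± 0.10), Slc40a1 (0.51 ± 0.04), Lpar6 (0.50 ± 0.07), Nlrp10 (0.50 ± 0.05), Akap5 (0.49 ± 0.07), Ackr4 (0.49 ± 0.10), Nox4 (0.49 ± 0.12), Rimklb (0.47 ± 0.13) and Tbx18 (0.43 ± 0.04). Tcp11x2, Nox4 and Rimklb were called in 1 of the 4 fits that left out a further library; Tcp11x2 was 0.30 without scramble replicate 2 and 1.01 without scramble replicate 3, and Nox4 was 0.32 without scramble replicate 2. Slc40a1, the iron exporter ferroportin (chr1:45908068-45926523, minus strand), had 118 and 118 CPM in pool 2 and 60.9, 82.2 and 83.7 CPM in scramble (edgeR adjusted p = 1.15e-07). Akap5, an anchor for protein kinase A, had 117 and 97.2 CPM in pool 2 and 37.0, 78.8 and 72.9 CPM in scramble (edgeR adjusted p = 9.46e-05). The pool 2 libraries were equal for Slc40a1 at this precision and apart for Akap5. Tcp11x2 lies among near-identical X-linked copies, so its count is uncertain.

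Metabolic, stress and growth lists moved less. Of 29 glycolysis and hypoxia response genes, 6 were lower (median −0.14; −0.24 with all libraries): Eno3 (−0.55 ± 0.06), Pkm (−0.41 ± 0.04), Vegfa (−0.23 ± 0.05), Tpi1 (−0.20 ± 0.04), Ldha and Hk1. Pkm, a pyruvate kinase gene, had 791 and 778 CPM in pool 2 and 1647, 1094 and 986 CPM in scramble, without overlap (edgeR adjusted p = 5.53e-06). Gapdh was called higher at 4.22 and 4.54 CPM in pool 2 and 5.04, 2.66 and 3.37 CPM in scramble. Gapdh has many near-identical pseudogene copies with which reads can be shared, so its count is uncertain. Of 23 unfolded protein response genes, 6 were lower and 0 higher (median −0.12): Xbp1 (−0.21 ± 0.05), Manf (−0.19 ± 0.04), Pdia4 (−0.19 ± 0.05), Pdia3 (−0.16 ± 0.04), Pdia6 and Hyou1. With a further library left out the unfolded protein response had 0 lower calls without pool 2 replicate 1, 3 without pool 2 replicate 2, 10 without scramble replicate 2 and 7 without scramble replicate 3; at an unadjusted edgeR p below 0.05, without scramble replicate 1 only, 17 were lower, and DESeq2 called 7 lower. The glycolysis list had 3 lower calls without either pool 2 library and 11 without scramble replicate 3. Over all 14062 genes tested without scramble replicate 1, 2337 had an unadjusted edgeR p below 0.05, in either direction. Of 26 ATF4 and amino acid response genes, Nupr1 (0.24, and −0.29 with all libraries) was higher and Ddit4 (−0.27) lower. Single calls in this list and in the next are close to the shares over all genes tested, 1.71% higher and 2.69% lower. Oxidative phosphorylation had 1 of 29 lower (Atp5d, −0.22 ± 0.05), and the 30 cytosolic ribosomal protein genes had 0 calls in either direction with edgeR (median 0.02). With all libraries these medians were −0.41 and −0.52, also with no edgeR, DESeq2 or limma-voom call for the ribosomal list; at an unadjusted edgeR p below 0.05 that list had 0 higher and 1 lower with all libraries, and 1 higher and 1 lower without scramble replicate 1. Both lists hold short genes (median 1363 and 1081 exon bases), and their median in scramble replicate 1 was 0.999 and 1.12 above that of scramble replicates 2 and 3.

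No member was called among 25 mitosis genes (median −0.07), 31 interferon-stimulated genes (median 0.02), 20 aminoacyl-tRNA synthetase genes, 16 theca and stroma markers, 7 immune markers and 8 endothelial markers, with edgeR, DESeq2 or the weighted limma-voom fit without scramble replicate 1. At an unadjusted edgeR p below 0.05 the counts were 6 lower for mitosis, and 1 higher and 3 lower for theca and stroma. They were 1 higher each for the synthetases and the immune markers, and 0 for the interferon-stimulated genes and the endothelial markers. Over all genes tested, 2337 of 14062 had such a p in that fit, in either direction. Mki67 had 314 and 301 CPM in pool 2 and 149, 299 and 350 CPM in scramble, and its groups overlapped (−0.08 ± 0.05, edgeR adjusted p = 0.511). Of 29 DNA replication and G1/S genes, Ccnd1 (−0.27 ± 0.05) and Cdc6 (−0.30 ± 0.08) were lower. In the extracellular matrix list, 4 of 40 were higher (Col4a3, Col4a4, Thbs1 and Nid2) and 5 lower (Vcan, Col6a2, Timp2, Col6a1 and Col5a1), with a median of −0.06 (0.16 with all libraries); without pool 2 replicate 1 as well these were 2 and 2, and without pool 2 replicate 2, 2 and 8. Both collagen IV chain genes rose (Col4a3 0.32 ± 0.05, Col4a4 0.27 ± 0.05), and Vcan, the proteoglycan of the cumulus matrix, changed by −0.43 ± 0.07. Of 21 YAP and TEAD targets, Cyr61 (0.31 ± 0.06), Ctgf (0.21 ± 0.05) and Lats2 (0.17 ± 0.04) were higher and Yap1 (−0.17 ± 0.04) was lower, and 0 were higher when pool 2 replicate 1 was left out as well. In retinoic acid handling, Crabp2, the retinoic acid hydroxylase gene Cyp26b1 (−0.39 ± 0.05) and Rdh11 (−0.21 ± 0.05) were lower and Dhrs3 (0.54 ± 0.11) was higher, of 15. The BMP, TGF-beta and activin list had Bmp4 (0.51 ± 0.10) higher and Tgfbr3 (−0.44 ± 0.09) and Tgfbr1 (−0.24 ± 0.05; 0.08 with all libraries) lower, of 29. Of 28 p53 target and apoptosis genes Mcl1 (0.15), of the BCL2 family, was higher and the p53 target Phlda3 (−0.22) lower, of 29 actin and SRF genes Filip1l (0.25) was higher and Scin (−0.62) and Myh9 (−0.14; 0.11 with all libraries) lower, and of 27 lysosome and autophagy genes Ctsl (−0.33) was lower. Gstm1 was lower among 22 NRF2 and glutathione genes. Over all genes tested, 1.71% were called higher and 2.69% lower. The single calls of the p53, lysosome and NRF2 lists are close to these shares. In the lists with at most 3 calls in a direction, those with no call included, that number became 0 to 6 when a further library was left out; the highest was 6 actin and SRF genes higher, without scramble replicate 2. It reached 4 for mitosis genes lower and YAP and TEAD targets higher, both without scramble replicate 2, and for BMP, TGF-beta and activin genes higher, without scramble replicate 3. Of the called genes named here, Atp5d, Cdc6, Ctgf, Ddx4, Gapdh, Hsd17b1, Igf1r, Mcl1, Myh9, Nefm, Pdia3, Phlda3 and Rdh11 were called in 1 of the 4 fits that left out a further library, and Adamtsl5, Bmp4, Ddit4, Foxo6, Lats2, Nap1l5, Nid2, Nupr1, Tgfbr1 and Yap1 in 2 of them. Among markers of other cells, Krt18 (0.21 ± 0.05; −0.26 with all libraries) was higher and Fgf9 (−0.54 ± 0.08) and the germ cell gene Ddx4 (−0.79 ± 0.17) were lower; Ddx4 was at 2.85 and 2.73 CPM in pool 2 and 6.29, 4.94 and 4.67 CPM in scramble. The summed oocyte markers were 3.59 to 3.62 CPM in pool 2 and 5.54 to 8.04 CPM in scramble, and the summed theca and stroma markers, mostly Acta2, 2121 to 2192 CPM in pool 2 and 1919 to 3274 CPM in scramble.

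**Figure D5:**
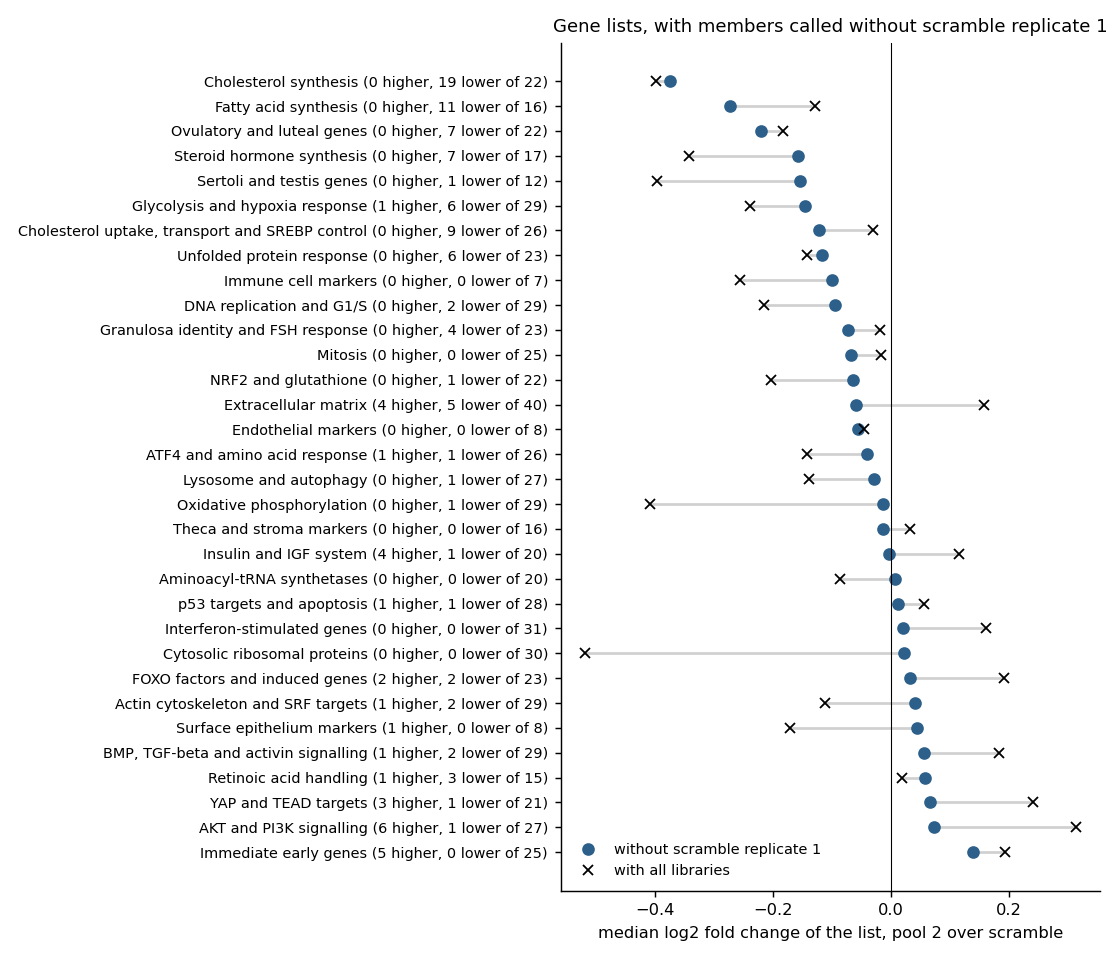
Median log2 fold change of pool 2 over scramble in each gene list with at least 3 members tested, without scramble replicate 1 (circles) and with all libraries (crosses); the row labels give the members called without scramble replicate 1. Without scramble replicate 1 cholesterol synthesis is lowest at −0.38 (−0.40 with all libraries), while ribosomal proteins are at 0.02 (−0.52 with all libraries).

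Pool 2 was also set against the mean of pools 1, 3 and 4, which share its intended target. With all libraries in the fit 743 genes were called (5.25%), 559 higher and 184 lower in pool 2; without scramble replicate 1 there were 6149 (43.7%), 3300 higher and 2849 lower. This comparison uses the same pool 2 libraries as the one with scramble. Of the genes averaging 2 or more on the log2 CPM scale that were called here with all libraries and against scramble without scramble replicate 1, the largest differences were Rimklb (8.91 and 10.2 CPM in pool 2, 2.47 to 4.65 CPM in the other pools; 1.45, edgeR adjusted p = 0.000677 with all libraries) and Lyve1 (3.32 and 3.96 CPM in pool 2, 8.22 to 9.60 CPM in the other pools; −1.27, edgeR adjusted p = 0.0126). Plagl1, an imprinted zinc finger gene (1.11, edgeR adjusted p = 0.0109), Lrfn4 (0.95, 0.00771) and Slc40a1 (0.91, 0.00373) were higher in pool 2 than in the other pools. Cpxm1, a carboxypeptidase-like matrix gene, had 144 and 136 CPM in pool 2, 276 to 407 CPM in the other pools, and 271, 195 and 186 CPM in scramble (−1.22, edgeR adjusted p = 0.00404 against the other pools).

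Some of the genes described above also differed between pool 2 and the other pools. Star had 396 and 394 CPM in pool 2 and 565 to 613 CPM in the other pools, which were above all scramble libraries (−0.56, edgeR adjusted p = 0.0108 with all libraries). Fos had 48.6 and 53.3 CPM in pool 2 and 18.3 to 35.0 CPM in the other pools (0.91, edgeR adjusted p = 0.000821), and Egr1 had 74.2 and 92.3 CPM in pool 2 and 30.8 to 71.2 CPM there, with pool 1 at 35.0 and 30.8 CPM (0.62, edgeR adjusted p = 0.0134). Insig1 (−0.63, edgeR adjusted p = 0.00873) and Acss2 (−0.54, edgeR adjusted p = 0.0133) were lower in pool 2. Crabp2 was low in every pool, at 73.9 to 98.6 CPM in the others (−0.14, edgeR adjusted p = 0.924). Pik3ip1 was high in every pool, at 19.8 to 25.7 CPM in the others (−0.07, edgeR adjusted p = 0.923).

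By list, cholesterol synthesis had a median of −0.24 against the other pools. With all libraries in the fit 2 of the 22 were lower and 1 higher, and without scramble replicate 1, which is in neither group but enters the spread shared by the fit, 14 were lower and 1 higher. Over all genes tested these shares were 1.30% lower and 3.95% higher with all libraries, and 20.3% lower and 23.5% higher without scramble replicate 1, with a median of −0.01. Fatty acid synthesis had a median of −0.08, with 1 of 16 lower and 1 higher with all libraries, and 8 lower and 4 higher without scramble replicate 1; the 4 are close to the share over all genes. The 31 interferon-stimulated genes had a median of −0.41, with 0 edgeR calls in either direction with all libraries, and 17 lower and 0 higher without scramble replicate 1. With all libraries 3 of them were lower at an unadjusted edgeR p below 0.05, DESeq2 called 1 lower, and the weighted limma-voom fit called 17 lower. Of the 25 mitosis genes (median −0.25), 1 was lower and 0 higher with all libraries, and 20 were lower and 1 higher without scramble replicate 1. Of the 29 actin cytoskeleton and SRF target genes (median 0.38), 9 were higher and 0 lower with all libraries, and 23 were higher and 2 lower without scramble replicate 1. Acta2 was at 1938 and 1843 CPM in pool 2, 813 to 1103 CPM in the other pools and 3039, 2007 and 1631 CPM in scramble. Of the 23 granulosa identity and FSH response genes (median 0.25), 4 were higher and 0 lower with all libraries, and 17 were higher and 1 lower without scramble replicate 1.

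Some of the 14 largest decreases differed between the other pools. P2rx4 had 13.2 and 13.3 CPM in pool 2, 14.8 and 12.9 CPM in pool 1, 14 and 15.5 CPM in pool 4, and 31.9 and 32.5 CPM in pool 3, where scramble had 33.1, 28.8 and 25.3 CPM. Nrd1 had 141 and 148 CPM in pool 2, 150 and 151 CPM in pool 1, 146 and 155 CPM in pool 4, and 232 and 224 CPM in pool 3, where scramble had 214, 229 and 251 CPM. For both genes pool 3, which lacked siRNA 8, was at the level of the scramble libraries, and the other 3 pools were below them. Cmtm6 had 74.8 and 82.7 CPM in pool 2, 95.6 and 95.7 CPM in pool 1, 91.9 and 94.4 CPM in pool 4, and 120 and 122 CPM in pool 3, against 94.5, 122 and 120 CPM in scramble. Gga2 had 53.8 and 55.6 CPM in pool 2, 66.1 and 64.9 CPM in pool 1, 65.2 and 66.6 CPM in pool 4, and 96.1 and 98.1 CPM in pool 3, against 79.9, 84.1 and 81.9 CPM in scramble. Akt1 itself was highest in pool 3 among the pools, at 77.3 and 79.6 CPM. Polr3g had 21.0 and 19.9 CPM in pool 3, 13.3 and 13.8 CPM in pool 1, and 12.5 and 14.6 CPM in pool 4. Pool 3 was also above the other 3 pools for Galnt16 (8.17 and 8.37 CPM in pool 3), Gstm1 (109.5 and 122.7 CPM) and Adamtsl5 (17.0 and 18.1 CPM). The same held for Bola3 (16.3 and 15.9 CPM) and Nefm (5.30 and 6.20 CPM). Not all of the largest decreases had pool 3 near scramble and the other pools below it. Crabp2, as given above, was low in every pool, with pool 3 the highest. Acss2 had 19.5 and 21.5 CPM in pool 2, 31.2 and 27.3 CPM in pool 1, 31.1 and 32.3 CPM in pool 3 and 28.4 and 28.7 CPM in pool 4. Nap1l5 had 5.80 and 7.24 CPM in pool 2 and 2.60 to 4.74 CPM in the other pools, all below the 9.47 to 12.5 CPM of scramble. The genes with pool 3 apart were singled out after their values were seen, and whether siRNA 8 acts on them was not tested.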

How the data were processed

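Polyadenylated RNA of 11 libraries was sequenced as single reads of 75 bases from a strand-marking kit, per the labels' protocols. The submitters' processing notes name cutadapt 1.9.1, TopHat2, featureCounts 1.5.0-p2 and mm10, without settings or the strand choice. The deposited files give raw counts, 1 whole number per gene symbol and library. The 92 ERCC lines were dropped before scaling. Levels of paralogs or overlapping genes may share reads.

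These were modelled in R 4.3.3 by edgeR 4.0.16 (TMM, filterByExpr, quasi-likelihood F test, two-sided, Benjamini-Hochberg adjustment over all genes kept). One model with 5 groups held all 11 libraries, and a second held 10, without scramble replicate 1, so the spread is shared over groups. Genes with an adjusted p below 0.05 were called. Alternatives used DESeq2 1.42.0, limma 3.58.1 (voom with sample quality weights), other scaling and filters, offsets for exon length, 2 groups only, a replicate block and leaving out libraries. The procedure was tested on simulated data. Gene coordinates and exon lengths are from GENCODE M21 on GRCm38 (mm10), matched by symbol for 23667 of 24490 genes.

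Named genes were the AKT genes (a few genes that met these rules are not reported here), the 14 largest changes in each direction of genes that were called, averaged at least 2 on the log2 CPM scale and lay outside all 3 scramble libraries, up to 4 called members per list and direction (or the 2 most abundant where none was called), and, of genes called both there and against scramble, the 6 largest differences from the other pools in each direction (without scramble replicate 1); predicted genes were passed over. Other members of a list are given where its count is explained, and Map1a, Tmem129, Comp, Grin1, Ly6a, Muc15, Serpina6 and Iglon5 were named after their values were seen. The comparison and the 34 gene lists were chosen with earlier results of these data known. List counts and medians carry no test.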

Additional observations from a re-analysis of the deposited data

Results flagged for a closer look

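Over all genes tested, 743 (5.25%) differed between pool 2 and the mean of the other 3 pools with all libraries (edgeR, adjusted p below 0.05). Of the 618 genes called in pool 2 against scramble without scramble replicate 1, 71 were among them. Both comparisons use the same pool 2 libraries, so the 71 are no separate support for the calls. Given are the 21 of the 71 that met the rule for named genes. Values are log2 differences, pool 2 minus the other pools. Lower in pool 2 were Lyve1 (−1.27), Cpxm1 (−1.22), Col5a3 (−0.82), Mylk3 (−0.73), Insig1 (−0.63), Star (−0.56), Acss2 (−0.54), Ctgf (−0.51), Gga2 (−0.45) and Ccnd1 (−0.37). Mylk3, a myosin kinase gene, and Ctgf were higher in pool 2 than in scramble replicates 2 and 3 (0.41 and 0.21) while lower than in the other pools. With and without a further library left out, the change of Mylk3 from scramble ranged from 0.31 to 0.50. That of Lyve1 ranged from −0.63 to −0.37, of Lrfn4 from 0.18 to 0.29 and of Plagl1 from 0.20 to 0.59. Mylk3 did not keep its call against scramble when any further library was left out. Lyve1, Lrfn4 and Plagl1 did not keep theirs in most of these fits. Higher in pool 2 were Zfp36 (0.57), Egr1 (0.62), Foxo6 (0.67), Btc (0.68), Pdia4 (0.87), Nap1l5 (0.90), Fos (0.91), Slc40a1 (0.91), Lrfn4 (0.95), Plagl1 (1.11) and Rimklb (1.45). Foxo6, Btc, Pdia4 and Nap1l5 were lower in pool 2 than in scramble replicates 2 and 3 (−0.30, −0.40, −0.19 and −0.62) while higher than in the other pools.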

How the results depend on the processing

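The count of genes called with all libraries was 1 with edgeR, 34 with DESeq2, 488 with limma-voom and sample quality weights, 12 with exon-length offsets and 0 with only pool 2 and scramble in the fit, where Akt1 had a log2 fold change of −3.07 and an edgeR adjusted p of 0.205; leaving out 1 library gave 1 to 618, the highest being without scramble replicate 1. Without scramble replicate 1 the 618 calls became 342 with only pool 2 and scramble in the fit and 949 with a replicate block, and leaving out another library gave 248 (pool 2 replicate 1), 358 (pool 2 replicate 2), 607 (scramble replicate 2) and 1175 (scramble replicate 3), a range of 248 to 1175. Against the other pools the 743 calls became 1279 with DESeq2, 6651 with limma-voom, 2145 with length offsets, 531 with the replicate block and 111 to 6149 with a library left out: 111 and 113 without a pool 2 library, 346 to 385 without a library of another pool, 6149 without scramble replicate 1. Deviations of same-numbered pool 2 and scramble libraries correlated at 0.05 and 0.06 across genes, and those of differently numbered ones at −0.06 and −0.05. The 2 deviations of pool 2 mirror each other, and those of scramble are from a mean that includes scramble replicate 1. These values therefore cannot decide whether the numbers pair the libraries, and the main fits did not pair them. The replicate block left the count with all libraries at 1 and gave 949 instead of 618 without scramble replicate 1. With all libraries some gene values turned sign: Ier2 to 0.31 and Stard4 to −0.29 with limma-voom, and with 1 library left out Ier2 ranged from −0.30 to 0.34, Stard4 from −0.30 to 0.39, Inhba from −0.25 to 0.71, Krt18 from −0.45 to 0.21, Myh9 from −0.14 to 0.26, Nupr1 from −0.52 to 0.24 and Tgfbr1 from −0.24 to 0.33, each with its turned sign without scramble replicate 1. List medians near 0 turned as well: aminoacyl-tRNA synthetases to 0.013 (limma-voom), actin to 0.0042 (limma-voom) and 0.0036 (length offsets), insulin and IGF to −0.066 (length offsets) and endothelial markers to 0.15 (replicate block); with 1 library left out actin ranged from −0.19 to 0.041, insulin and IGF from −0.0036 to 0.17, retinoic acid from −0.058 to 0.058 and endothelial markers from −0.16 to 0.15. Of the 112 named genes called without scramble replicate 1, not all stayed called with a further library left out. None turned sign in any alternative run that also lacked scramble replicate 1. With all libraries in the edgeR fit, Ier2, Stard4, Inhba, Krt18, Myh9, Nupr1 and Tgfbr1 had the opposite sign, as given above. A group left with 1 library is assumed to vary like the others, and the cause of these changes was not tested.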
